A study of Homo sapiens with 20 samples.

Results

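HMOX1 and 6 other genes that cells use against oxidative stress (NQO1, GCLM, GCLC, TXNRD1, SRXN1 and SLC7A11) were followed across 7 groups of LNCaP, an established line of human prostate cancer cells that responds to androgens. These 7 genes are 7 of the 18417 genes tested. They were taken by name, and each was represented on the array by 1 transcript cluster. HMOX1 was selected on its own intensity in the hydroxyurea arrest in an earlier analysis of these arrays, and the other 6 were chosen by their known link to it, so HMOX1 in that arrest is described here and is not tested.

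RNA was measured on 20 Affymetrix human Gene 1.0 ST arrays, and the question, as the series title puts it, was how the transcripts induced by the androgen DHT depend on the cell cycle. In the late S group, cells had hydroxyurea, an inhibitor of ribonucleotide reductase, at 1 mM for 24 h (n = 3). In early G1 they had 0.5 µM PD-0332991, which blocks the kinases CDK4 and CDK6, for 24 h (n = 3). In late G1 they had 5 µg/mL roscovitine, which blocks a range of cyclin-dependent kinases, for 24 h (n = 3). In early S they had aphidicolin, an inhibitor of replicative DNA polymerases, at 2 µg/mL for 24 h (n = 2). In G2/M they had 2 µg/mL aphidicolin for 15 h and then, once it was washed out, 50 ng/mL of the microtubule drug nocodazole for 9 h (n = 3). All 5 of these arrested groups had DHT, per the protocols at 10 nM, for the final 3 h, and the labels give hormone-proficient medium for the cultures. CDT + DHT cells spent 72 h in CDT, a medium that the labels do not spell out, and had DHT for 3 h (n = 3). CDT cells had the same 72 h and ethanol for 3 h (n = 3). Arrested cells differ from CDT + DHT cells both by the drug and by the 72 h in CDT, and these cannot be told apart. From CDT cells they differ by the DHT as well, and these 3 cannot be told apart either. Nothing in the labels says whether the replicates came from separate cultures, and the spread behind each p-value is therefore that of these arrays alone and may be technical. Only 2 or 3 arrays stood in each group, and this number limits the precision of every difference below.

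The 7 genes are classical targets of the transcription factor NRF2, the product of NFE2L2. In resting cells the adaptor KEAP1 holds NRF2 and passes it to a ubiquitin ligase. When oxidants or electrophiles modify KEAP1, NRF2 builds up, pairs with a small MAF protein and binds antioxidant response elements in the DNA of its target genes. The repressor BACH1 occupies the same kind of element, keeps HMOX1 low in most cells and is released by heme. HMOX1 can also be raised by other stress signals.

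Promoter sequences, 250 bases upstream of a gene start, were read from RefSeq (GRCh38.p14), which gave 6 starts for 5 of the 7 genes. HMOX1 and SLC7A11 had no entry. Each window was searched on both strands, together with 50 bases after the start, for the core of the antioxidant response element, TGACNNNGC. The windows of TXNRD1, which has 2 starts in the table, and of GCLM are shown because they hold the core, and that of NQO1 because it does not, although NQO1 is the textbook target of NRF2. Each is written 5′ to 3′ on the strand of the gene, with the core, or its reverse complement, in capitals.
TXNRD1, first start, chr12:104215529-104215778, plus strand: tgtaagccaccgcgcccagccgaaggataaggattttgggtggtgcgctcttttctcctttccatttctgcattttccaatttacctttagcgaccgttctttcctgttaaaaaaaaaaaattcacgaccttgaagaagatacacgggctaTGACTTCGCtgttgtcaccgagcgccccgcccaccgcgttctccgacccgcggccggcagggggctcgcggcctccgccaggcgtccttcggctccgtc
TXNRD1, second start, chr12:104286782-104287031, plus strand: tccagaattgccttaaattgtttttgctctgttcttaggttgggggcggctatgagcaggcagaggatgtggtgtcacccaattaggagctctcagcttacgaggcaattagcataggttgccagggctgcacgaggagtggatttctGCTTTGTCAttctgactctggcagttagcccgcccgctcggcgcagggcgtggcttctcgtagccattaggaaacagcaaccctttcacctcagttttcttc
GCLM, chr1:93909431-93909680, minus strand: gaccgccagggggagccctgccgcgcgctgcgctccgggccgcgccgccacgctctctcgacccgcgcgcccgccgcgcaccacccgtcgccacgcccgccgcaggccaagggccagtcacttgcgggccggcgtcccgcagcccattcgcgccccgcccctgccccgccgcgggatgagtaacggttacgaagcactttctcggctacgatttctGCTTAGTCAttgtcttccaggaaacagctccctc
NQO1, chr16:69726561-69726810, minus strand: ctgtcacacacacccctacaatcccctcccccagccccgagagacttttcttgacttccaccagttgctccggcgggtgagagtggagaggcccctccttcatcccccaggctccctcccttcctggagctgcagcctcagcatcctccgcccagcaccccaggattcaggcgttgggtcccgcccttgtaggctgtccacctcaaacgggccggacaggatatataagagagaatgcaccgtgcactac
The core lay at bases -99 to -91 of the first TXNRD1 start, -102 to -94 of the second and -34 to -26 of GCLM. A further match at the first TXNRD1 start overlapped the start itself, at bases -8 to 1, and is not capitalised. No match lay in the windows of NQO1, GCLC and SRXN1, which says only that these letters are absent there. The core occurred in 13.35% of all 35116 promoter windows of the same 300 bases. The AP-1 type element TGANTCA (7.709% of windows) and the amino acid response element core TGATGNAAN (3.611%) had no match in the 6 windows, on either strand.

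In an earlier analysis of these data, 4 arrays stood apart from their groups, namely late S 1, early G1 2, CDT + DHT 3 and CDT 1. An array score was computed here from the deviations of 5874 brighter genes from their group means, with the 7 genes left out. The score is the position of an array on the first principal component of these deviations, in SD units, and that component held 49.9% of the variance within groups. The same 4 arrays had the 4 highest scores, 1.88 for late S 1, 1.63 for early G1 2, 1.03 for CDT + DHT 3 and 1.70 for CDT 1. The sign of the score was set so that late S 1 was positive, and deviations balance within each group. At the other end lay late S 2 (-1.79), CDT 2 (-1.12) and early G1 1 (-1.09), each further from 0 than CDT + DHT 3. The score by itself thus does not set the 4 arrays apart. The main differences of the 7 genes are given with and without these arrays where they moved. The cells carried prostate markers. KLK3, the gene of prostate-specific antigen and a textbook androgen target, lay at 574 to 863 in late S, at 384 to 496 in CDT + DHT and at 90.8 to 283 in CDT. Summed over the 8 measured of 12 LNCaP and luminal prostate markers, intensities were 1383 to 2161 in late S, 1097 to 1542 in CDT + DHT and 809 to 1004 in CDT. Bright genes such as KLK3 weigh most in these linear sums. By the mean of their log2 values, the late S arrays overlapped those of both CDT groups. Of the 8 markers, 4 were above 0 in late S against CDT + DHT and 5 against CDT. Their median difference was 0.18 and 0.32 (log2 scale), beside -0.01 and -0.10 for all genes. In limma, 0 of the 8 passed in late S against CDT + DHT, and 1 rose against CDT (KLK2). Of all genes, 0.0706% and 0.0977% passed there. KLK2 also rose in early G1 and in late G1 against CDT, where 0.00543% and 0.103% of all genes passed. Summed over 10 of 10 leukocyte and macrophage markers, intensities were 88.8 to 147 in late S, 49.3 to 97.8 in CDT + DHT and 74.0 to 141 in CDT. Among them PTPRC, the common leukocyte antigen, was at 12.9, 3.54 and 2.11 in late S and 3.00, 2.64 and 0.0078 in CDT + DHT. In CDT it was at 5.33, 5.24 and 0.0129. All of these PTPRC values but the 12.9 lay below the lowest array median, 5.44. PTPRC falls outside the rule for naming genes, so nothing is read from it. In limma, 0 of the 10 passed in late S against CDT + DHT or CDT, where 0.0706% and 0.0977% of all genes did. At an unadjusted p of 0.05, 1 and 2 of the 10 passed, beside 10.2% and 5.94% of all genes. Of the 10, 6 were above 0 in each comparison. The median difference of the 10 in late S was 1.09 against CDT + DHT and 0.36 against CDT (log2 scale), beside -0.01 and -0.10 for all genes. All 7 groups were cultures of the LNCaP line. What these marker values have to do with the level of HMOX1 was not tested. Summed over 9 of 9 stromal markers, intensities were 92.2 to 107 in late S, 62.9 to 123 in CDT + DHT and 102 to 131 in CDT.

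HMOX1 encodes heme oxygenase 1, which opens the heme ring and releases biliverdin, iron and carbon monoxide (chr22:35381096-35394207, GRCh38.p14). Its intensity, a linear array value, was 246, 179.6 and 233 in the 3 late S arrays. In early G1 it was 15.4, 27.4 and 31.0. In late G1 it was 35.5, 40.4 and 24.1. Every late S array was thus far above every array of both G1 arrests. HMOX1 lay at 33.0 and 33.8 in early S and at 37.0, 26.5 and 51.7 in G2/M. It lay at 38.7, 51.1 and 31.4 in CDT + DHT and at 134, 45.5 and 42.3 in CDT. The lowest late S array exceeded the highest array of any other group, which was CDT 1, one of the 4 arrays that stood apart.

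On the log2(value + 1) scale the HMOX1 means ran in the order late S (7.77 ± 0.24), CDT (6.02 ± 0.92), CDT + DHT (5.34 ± 0.34), G2/M (5.25 ± 0.47), early S (5.10 ± 0.02), late G1 (5.07 ± 0.38) and early G1 (4.62 ± 0.52), each with its SD. From CDT downward, neighbours in this order overlapped in their arrays. HMOX1 in late S was higher by 2.43 ± 0.50 than in CDT + DHT (estimate ± SE of the limma fit), a 5.38-fold difference. It was higher by 1.75 ± 0.50 than in CDT, a 3.37-fold difference. It was higher by 2.67 ± 0.56 than in early S, by 3.15 ± 0.50 than in early G1, by 2.70 ± 0.50 than in late G1 and by 2.52 ± 0.50 than in G2/M. These 6 differences are descriptions with no test. Of all genes, 6.29% were higher with no overlap of arrays in late S than in CDT + DHT, 4.01% in late S than in CDT, 8.69% than in early S, 3.38% than in early G1, 7% than in late G1 and 5.18% than in G2/M. Without the 4 arrays that stood apart, HMOX1 in late S was higher by 2.18 than in CDT + DHT, by 2.20 than in CDT and by 2.58 than in early S. Hydroxyurea and aphidicolin both stall replication, and the early S arrays lay within the range of the G2/M arrays. Whether stalled replication has a part in the level of HMOX1 was not tested. In RNA from whole cultures, more HMOX1 per cell and more cells with HMOX1 cannot be told apart.

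**Figure D1:**
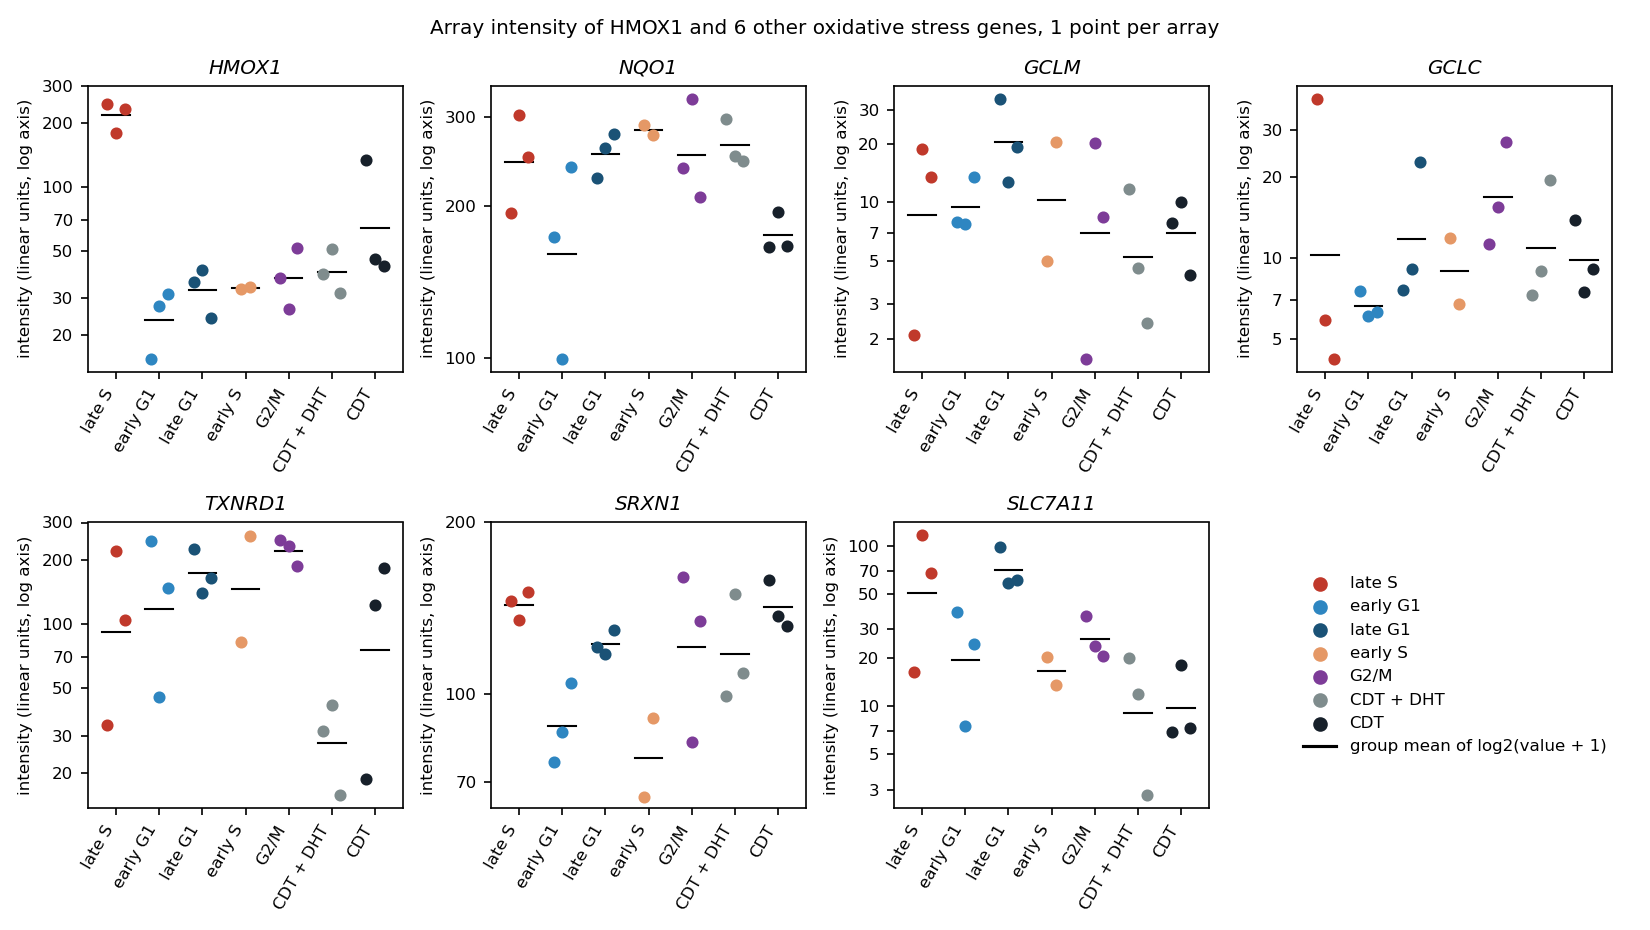
Intensity of the 7 genes on each array (linear units, log axis), 1 point per array, with late S at the left and CDT at the right of each panel and a bar at the group mean of log2(value + 1). The 3 late S arrays of HMOX1 lie between 179.6 and 246, above the CDT array at 134 and above every other array.

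Outside late S, no difference in HMOX1 passed the limma test at an adjusted p of 0.05. In CDT + DHT against CDT it was -0.67 ± 0.50 on the log2 scale (limma adjusted p = 0.814). CDT 1 held the one high CDT value, and without the 4 arrays the difference was 0.02. The largest of the other differences was that of early G1 against CDT, -1.40 ± 0.50 (limma adjusted p = 0.946, unadjusted p = 0.0121), and its arrays did not overlap (7.07% of all genes were lower without overlap there). Without the 4 arrays it was -0.97 ± 0.53 (limma adjusted p = 0.982). Against CDT + DHT, early G1 was at -0.72 ± 0.50, late G1 at -0.27 ± 0.50, early S at -0.24 ± 0.56 and G2/M at -0.09 ± 0.50, with adjusted p from 0.706 to 0.957.

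None of the other 6 genes passed the test in late S with equal weights for all arrays. With limma, 0 of the 6 passed an adjusted p of 0.05 in late S against CDT + DHT, where 0.0706% of all genes passed, and 1 of 6 passed at an unadjusted p of 0.05, where 10.2% of all genes did. In late S against CDT the counts were 0 of 6 (0.0977% of all genes) and 1 of 6 unadjusted (5.94%). In late S against early S they were 0 of 6 (0.00543%) and 0 of 6 unadjusted (5.85%). The 1 gene in the first 2 comparisons was SLC7A11. The median difference of the 6 genes was 0.45 against CDT + DHT, where the median of all genes was -0.01, and 0.27 against CDT, where it was -0.10. Against early S it was -0.01, where that of all genes was -0.19.

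**Figure D2:**
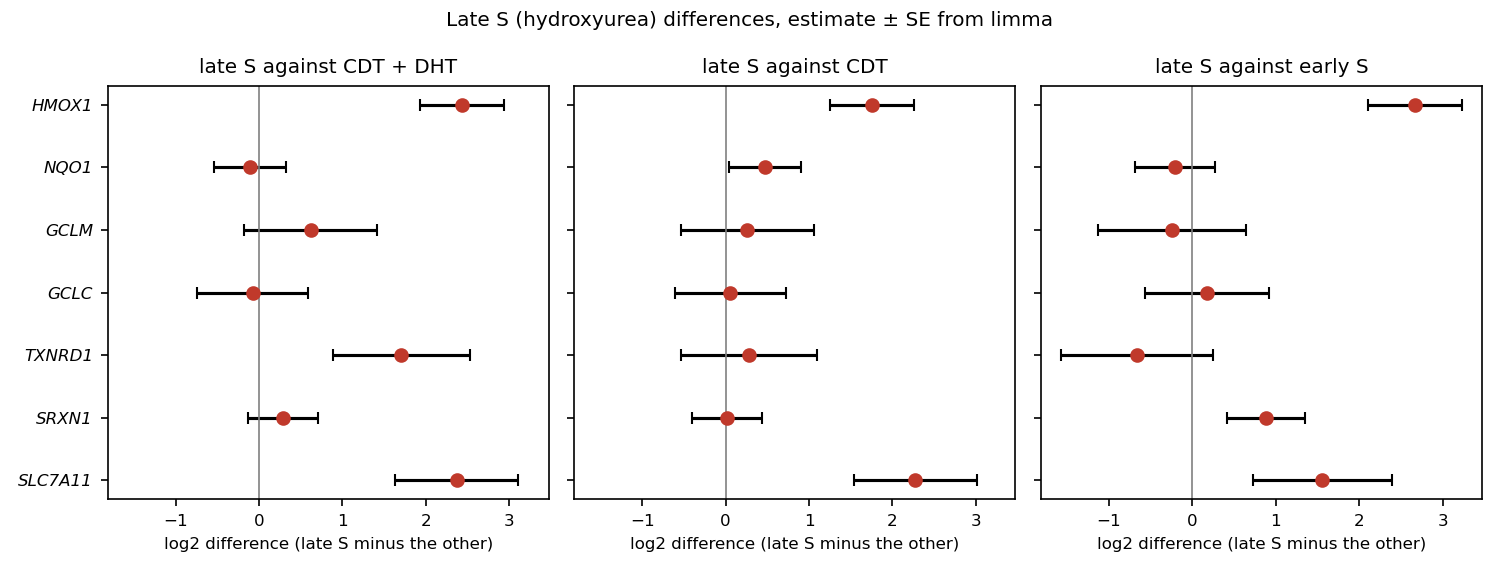
Differences of the 7 genes in late S against CDT + DHT, CDT and early S (log2 scale, estimate ± SE from limma). HMOX1 is at 2.43, 1.75 and 2.67 in the 3 panels, SLC7A11 at 2.37, 2.27 and 1.56, and NQO1 at -0.11, 0.48 and -0.21.

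NQO1 encodes a cytosolic quinone reductase and is the usual marker of NRF2 activity (chr16:69709401-69726560). Its intensity was 193, 302 and 249.7 in late S, 297, 251 and 246 in CDT + DHT and 166, 195 and 167 in CDT. It was 174, 99.8 and 239 in early G1, 227, 259.8 and 277 in late G1, 289 and 276 in early S, and 237, 325 and 209 in G2/M. The late S arrays lay across those of CDT + DHT, and only late S 1 fell inside the CDT range. The difference of late S was -0.11 ± 0.43 against CDT + DHT (limma adjusted p = 0.951, 95% interval -1.01 to 0.79) and 0.48 ± 0.43 against CDT (limma adjusted p = 0.935). CDT + DHT was higher than CDT by 0.59 ± 0.43 with no overlap of arrays, and did not pass (limma adjusted p = 0.812). In that comparison 7.81% of all genes were higher with no overlap. The means ran in the order early S, CDT + DHT, late G1, G2/M, late S, CDT and early G1, from 8.14 ± 0.05 in early S to 7.34 ± 0.63 in early G1 (log2, SD). Late S, the fifth in this order, differed from early S, the highest, by -0.21 ± 0.48, so the first 5 means did not differ beyond their spread.

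GCLC and GCLM encode the catalytic and the modifier subunit of glutamate-cysteine ligase, the rate-limiting step of glutathione synthesis. Both were dim, and their values ran from below to above the medians of the arrays, which were 5.44 to 9.08. GCLM ran from 1.58 to 34.0 over all arrays and GCLC from 4.24 to 39.0. GCLM (chr1:93885199-93909430) was at 2.08, 18.8 and 13.5 in late S, 11.8, 4.60 and 2.41 in CDT + DHT and 7.89, 10.0 and 4.23 in CDT. GCLC (chr6:53497341-53545101) was at 39.0, 5.91 and 4.24 in late S, 7.29, 8.96 and 19.5 in CDT + DHT and 13.9, 7.50 and 9.13 in CDT. The array late S 1 held the highest GCLC value of all 20 arrays and the second lowest GCLM value. In late S against CDT + DHT, GCLM differed by 0.62 ± 0.80 (limma adjusted p = 0.820) and GCLC by -0.08 ± 0.66 (limma adjusted p = 0.982). Without the 4 arrays the same differences were 1.00 for GCLM and -0.59 for GCLC. GCLM was highest in late G1, at 34.0, 12.7 and 19.4, and there it exceeded CDT + DHT by 1.78 ± 0.80 with no overlap of arrays (limma adjusted p = 0.326, unadjusted p = 0.0378), as 10.8% of all genes did. This difference without the 4 arrays was 1.34 ± 0.81 (limma unadjusted p = 0.120). GCLC was highest in G2/M, at 11.3, 15.5 and 26.9, where it differed from CDT + DHT by 0.58 ± 0.66 (limma adjusted p = 0.721).

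SLC7A11 encodes the light chain of the cystine and glutamate exchanger, which brings in the cystine that glutathione synthesis needs (chr4:138164097-138242349). Its intensity was 16.4, 116 and 67.6 in late S, and 98.2, 58.6 and 61.1 in late G1. It was 38.4, 7.49 and 24.4 in early G1, 20.3 and 13.5 in early S, and 36.5, 23.8 and 20.4 in G2/M. It was 19.9, 11.9 and 2.77 in CDT + DHT and 6.84, 18.0 and 7.27 in CDT. The late G1 arrays and 2 of the 3 late S arrays were above every array of the other 5 groups, while late S 1 lay inside the ranges of both CDT groups. SLC7A11 in late S differed from CDT + DHT by 2.37 ± 0.74 (limma adjusted p = 0.333, unadjusted p = 0.00467), a 5.16-fold difference. It differed from CDT by 2.27 ± 0.74 (limma adjusted p = 0.554, unadjusted p = 0.00619). Without the 4 arrays these differences were 2.45 ± 0.59 and 2.84 ± 0.59 (limma adjusted p = 0.288 and 0.307). None of these passed, and the 3 late S arrays spanned 16.4 to 116. With 1 array left out, the difference from CDT + DHT ran from 1.66 (without CDT + DHT 3) to 3.16 (without late S 1). With limma's arrayWeights, which weights each array by its fit, SLC7A11 passed in late S against CDT + DHT (adjusted p = 0.00866) and against CDT (adjusted p = 0.0390), and that setting called 1776 genes in late S against CDT + DHT, beside 13 without weights.

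In late G1, SLC7A11 differed from CDT + DHT by 2.83 ± 0.74 (limma adjusted p = 0.0849), the lowest adjusted p of the 7 genes in the 21 comparisons, and from CDT by 2.74 ± 0.74 (limma adjusted p = 0.189). The difference from CDT + DHT without the 4 arrays was 2.13 ± 0.54 (limma adjusted p = 0.0800), a 4.37-fold difference beside 7.13-fold with them. Its arrays in late G1 were above those of CDT + DHT, CDT, early G1, early S and G2/M with no overlap. Of all genes, 5.52% were higher without overlap in late G1 than in CDT and 5.54% than in early G1, and 6.65% were lower in G2/M and 9.44% in early S than in late G1. With the array late S 1 left out of the fit, SLC7A11 in late G1 passed against CDT + DHT. It also passed with a pseudocount of 16, with quantile normalization, with arrays centred on their median, with dim genes left out, with the trend and robust options of eBayes and with arrayWeights, and did not pass in the other alternatives run. Late G1 against CDT + DHT was the comparison with the most calls over all genes, 95, or 0.516%.

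TXNRD1 encodes the cytosolic thioredoxin reductase, which keeps thioredoxin reduced at the expense of NADPH (chr12:104215779-104350307). Its intensity was 33.6, 219 and 105 in late S, 245, 45.4 and 148 in early G1, and 225, 139.8 and 165 in late G1. It was 82.3 and 259 in early S and 248, 231 and 187 in G2/M. It was 31.6, 41.5 and 15.8 in CDT + DHT and 18.8, 123 and 183 in CDT. The CDT + DHT arrays were low throughout, and the array late S 1 was the one late S value inside their range. TXNRD1 differed from CDT + DHT by 2.96 ± 0.82 in G2/M (limma adjusted p = 0.107) and by 2.61 ± 0.82 in late G1 (limma adjusted p = 0.156). The difference was 2.37 ± 0.91 in early S (limma adjusted p = 0.553), 2.06 ± 0.82 in early G1 (limma adjusted p = 0.567) and 1.71 ± 0.82 in late S (limma adjusted p = 0.490). In early G1, late G1, early S and G2/M, the arrays were above those of CDT + DHT without overlap, as were those of 7.16%, 10.8%, 15.3% and 15.1% of all genes. The 5 comparisons share the CDT + DHT arrays. With the 4 arrays left out, TXNRD1 differed from CDT + DHT by 2.57 ± 0.56 in G2/M (limma adjusted p = 0.0510). It then differed by 2.04 in late S, 2.36 in early G1, 1.98 in early S and 2.22 in late G1, and none passed. With 1 array left out, the late S difference ran from 1.09 (without late S 2) to 2.42 (without late S 1), and with arrayWeights it passed (adjusted p = 0.0462). CDT + DHT itself differed from CDT by -1.43 ± 0.82 (limma adjusted p = 0.749), and by -2.02 ± 0.61 without the 4 arrays (limma adjusted p = 0.339). Late S differed from CDT by 0.28 ± 0.82 (limma adjusted p = 0.983).

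SRXN1 encodes sulfiredoxin, which repairs over-oxidised peroxiredoxins (chr20:646615-653200). Its intensity was 145, 135 and 151 in late S, 99.2, 149.7 and 109 in CDT + DHT and 159, 137 and 131 in CDT. It was 75.9, 85.7 and 105 in early G1, 121, 118 and 129 in late G1, 65.9 and 90.6 in early S and 160.3, 82.3 and 134.5 in G2/M. Late S was above early S, early G1 and late G1 with no overlap of arrays, as were 8.69%, 3.38% and 7% of all genes. The difference of late S was 0.29 ± 0.42 against CDT + DHT (limma adjusted p = 0.840), 0.02 ± 0.42 against CDT (limma adjusted p = 0.998) and 0.88 ± 0.46 against early S (limma adjusted p = 0.775). In the order of its means, late S (7.17 ± 0.08) and CDT (7.16 ± 0.14) came first and early G1 (6.48 ± 0.23) and early S (6.29 ± 0.32) last (log2, SD). SRXN1 was the gene of the 6 whose level followed that of HMOX1 most closely over the arrays, with a Pearson r of 0.62 over 20 arrays and 0.55 over the 16 that remained without the 4. Both r values include late S intensities that HMOX1 was selected on, so they are descriptions and nothing is read from them.

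Across the design as a whole, the 7 genes gave 0 calls in the 21 pairwise comparisons of the 7 groups with limma, HMOX1 in late S left out. Of all genes, 0% passed in CDT + DHT against CDT, and 6.86% at an unadjusted p of 0.05, where 0 of the 7 did. Against CDT, the shares were 0.00543% for early G1, 0.103% for late G1, 0.0326% for early S and 0.109% for G2/M. At an unadjusted p of 0.05 these shares were 5.11%, 9.06%, 5.57% and 7.05%, with 1 member in early G1 (HMOX1), 1 in late G1 (SLC7A11) and 0 in the other 2. Against CDT + DHT, they were 0% for early G1, 0.516% for late G1, 0.00543% for early S and 0.44% for G2/M. At an unadjusted p of 0.05 these shares were 8.07%, 14%, 7.62% and 15.1%, with 1 member in early G1, early S and G2/M each (TXNRD1) and 3 in late G1 (GCLM, TXNRD1 and SLC7A11). In late S against early G1, late G1 and G2/M, 0.0489%, 0.195% and 0.0217% of all genes passed, and 3.57%, 8.95% and 6.27% at an unadjusted p of 0.05, where 0 of the 6 genes besides HMOX1 did. Among the other arrests, the shares were 0% for G2/M against early S, 0.483% for G2/M against late G1, 0.00543% for G2/M against early G1, 0.0977% for early S against late G1, 0.00543% for early S against early G1 and 0% for late G1 against early G1. At an unadjusted p of 0.05 these 6 shares were 3.42%, 9.28%, 3.67%, 7.81%, 2.72% and 7.1%, with 1 member in early S against late G1 and 1 in late G1 against early G1, SLC7A11 both times. With limma's moderated F test among the 5 arrests, 0 of the 6 genes passed (adjusted p from 0.789 for SLC7A11 to 0.946), against 0.255% of all genes. At an unadjusted p of 0.05, 0 of the 6 passed, against 6.89% of all genes. The share of a gene's variance that lay between the 7 groups was 64.1% for SRXN1, 63.7% for SLC7A11, 55.2% for NQO1, 52.7% for TXNRD1, 28.6% for GCLM and 22.0% for GCLC, and its median over all genes was 34.3%. It was 85.5% for HMOX1, which includes the late S intensities that HMOX1 was selected on, so nothing is read from it.

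The genes also differed in how they followed the arrays that stood apart. The correlation of a gene's deviation from its group mean with the array score, over 20 arrays, was -0.96 for TXNRD1 and -0.80 for SLC7A11. It was -0.61 for NQO1, -0.56 for GCLM, 0.63 for GCLC, 0.49 for HMOX1 and 0.05 for SRXN1. TXNRD1 and SLC7A11 were thus low in their groups on the arrays with high scores, and SRXN1 did not follow the score. These values are descriptions, since all genes of an array share its RNA and its labelling. Over the same arrays, HMOX1 had a Pearson r of 0.02 with NQO1, -0.11 with GCLM, 0.07 with GCLC, -0.29 with TXNRD1 and 0.14 with SLC7A11. The r values of HMOX1 include the late S intensities that it was selected on, so nothing is read from them. TXNRD1 and SLC7A11 had an r of 0.64 with each other, and 0.30 without the 4 arrays.

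**Figure D3:**
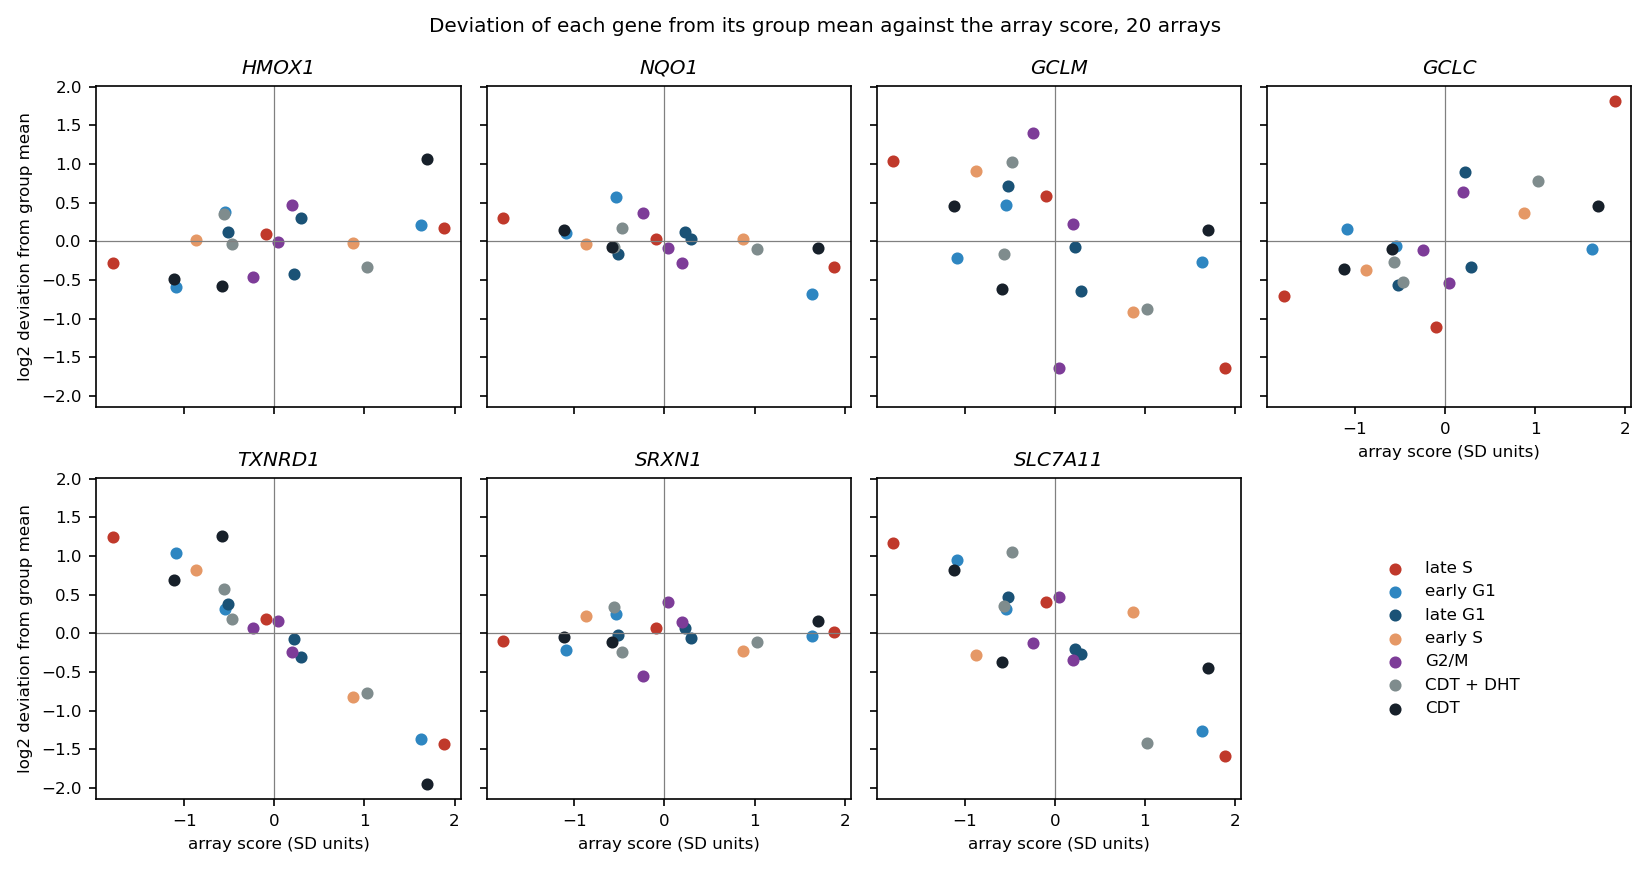
Deviation of each gene from its group mean (log2) against the array score (SD units), 1 point per array over 20 arrays, coloured by group from late S to CDT. TXNRD1 falls along the score (r = -0.96), SLC7A11 less closely (r = -0.80), and SRXN1 stays level (r = 0.05).

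Among the 9202 genes in the brighter part of those tested, the 6 with levels most like HMOX1 over the 20 arrays were GSN (r = 0.86), BBC3 (0.84), PROCR (0.83), TAGLN2 (0.79), CBLN3 (0.78) and GPANK1 (0.77). The 99th percentile of r over the candidates was 0.57. GSN encodes gelsolin, an actin-severing protein. Its intensity was 338, 199.3 and 252 in late S, 40.1, 35.2 and 75.1 in CDT + DHT and 104, 36.7 and 74.6 in CDT. BBC3 encodes PUMA, a pro-apoptotic BCL2 family protein and a p53 target. It was at 119, 115 and 112 in late S, 25.8, 28.8 and 30.8 in CDT + DHT and 71.4, 36.0 and 23.1 in CDT. PROCR encodes the endothelial protein C receptor. It was at 60.2, 62.2 and 76.6 in late S, 14.5, 15.0 and 4.66 in CDT + DHT and 17.9, 9.68 and 7.37 in CDT. All 3 genes had their highest CDT value on CDT 1, as HMOX1 did. Without the 4 arrays their r with HMOX1 was 0.82 for GSN, 0.80 for BBC3 and 0.83 for PROCR. These genes were picked for their likeness to HMOX1, so their late S levels are descriptions. For the mean of the other 6 genes the most similar were PHAX (r = 0.87), CLDN12 (0.84), IER3IP1 (0.84), NIFK (0.84), ZNF419 (0.82) and EHF (0.82), with a 99th percentile of 0.76, and none of these was among the 6 for HMOX1.

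**Figure D4:**
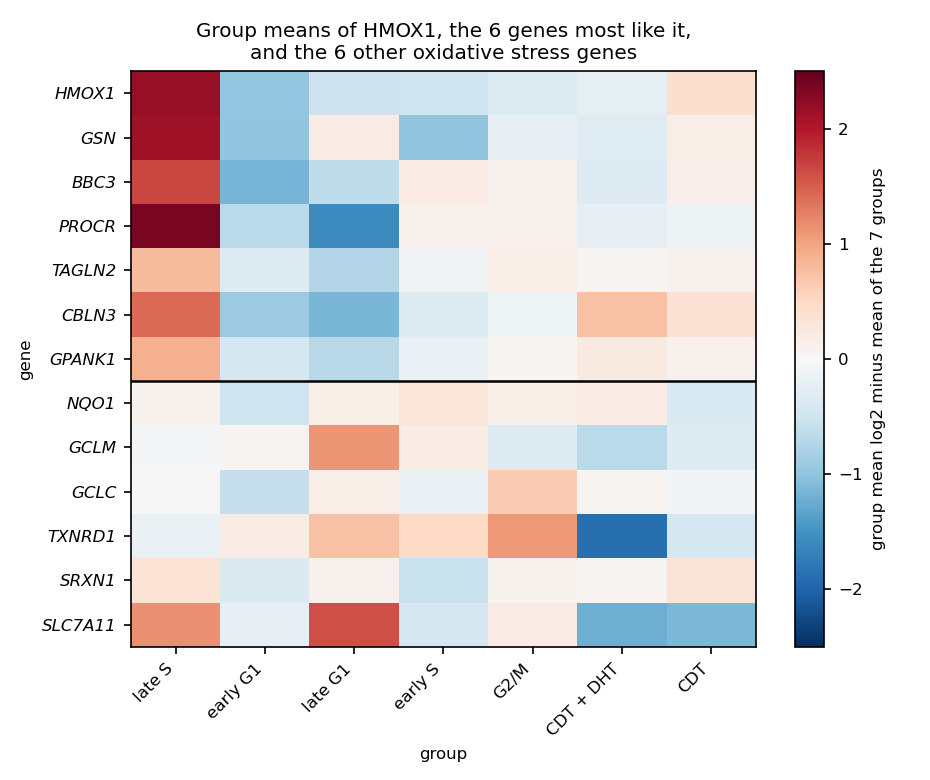
Group means of HMOX1, the 6 genes most like it and the other 6 oxidative stress genes, as the log2 group mean minus the mean over the 7 groups (colour scale), with late S at the left and CDT at the right. HMOX1 and the 6 genes most like it are highest in late S, while SLC7A11 and GCLM are highest in late G1 and TXNRD1 is lowest in CDT + DHT.

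Of the genes that control NRF2, 12 of the 13 listed were measured, and in late S 0 of 12 passed in limma against CDT + DHT, CDT or early S (2, 1 and 1 at an unadjusted p of 0.05, where 10.2%, 5.94% and 5.85% of all genes passed). Against CDT + DHT, 5 of the 12 were above 0, and the list's median was -0.07. The members with the largest differences there were PALB2, which binds KEAP1 and BRCA2 (1.82 ± 0.73, limma adjusted p = 0.424), and NFE2L1, a relative of NRF2 (-1.63 ± 0.64, limma adjusted p = 0.410). NFE2L2, KEAP1 and BACH1 fall outside the rule for naming genes and were chosen after their values were seen. NFE2L2 was at 0.813, 31.6 and 4.77 in late S and 4.38, 3.09 and 4.17 in CDT + DHT, so its late S arrays lay on both sides of CDT + DHT. In late S against CDT + DHT, NFE2L2 differed by 0.53 ± 0.87, KEAP1 by -0.64 ± 0.66 and BACH1 by 0.02 ± 0.92 (limma adjusted p = 0.860, 0.764 and 0.997).

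The wider enzyme lists around the 7 genes gave 0 calls in late S in these 3 comparisons. For glutathione synthesis and use, 29 of 30 genes were measured, with a median of -0.20 against CDT + DHT and 0.09 against CDT, and 4 and 1 at an unadjusted p of 0.05. The shares of all genes behind such pairs of counts, here and for the lists that follow, were 10.2% against CDT + DHT and 5.94% against CDT. In that list GSTT1, a glutathione transferase, differed from CDT + DHT by -2.13 ± 0.64 (limma adjusted p = 0.305). SLC3A2, the heavy chain that carries SLC7A11 to the cell surface, differed by -1.78 ± 0.69 (limma adjusted p = 0.410). SLC3A2 was at 4.17, 30.2 and 12.6 in late S and 64.9, 38.3 and 33.1 in CDT + DHT, so the estimates for the 2 subunits of the exchanger had opposite signs. For thioredoxin and peroxiredoxin genes, 12 of 14 were measured, with medians of -0.18 against CDT + DHT and -0.11 against CDT and 0 at an unadjusted p of 0.05 in both. The named members were SESN1, a sestrin (0.96 ± 0.80, limma adjusted p = 0.700), and PRDX2, a peroxiredoxin (-0.83 ± 0.53, limma adjusted p = 0.608).

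For the supply of NADPH, 7 of 8 genes were measured, with a median of -0.07 against CDT + DHT and 0.58 against CDT, and 0 and 1 at an unadjusted p of 0.05. ME1, malic enzyme, differed from CDT + DHT by 1.52 ± 0.82 (limma adjusted p = 0.525) and HK1, a hexokinase, by -1.13 ± 0.69 (limma adjusted p = 0.588). For other enzymes and transporters driven by NRF2, 20 of 25 were measured, with medians of 0.32 and 0.45 and 3 and 1 at an unadjusted p of 0.05. ABCC2, an efflux pump for conjugates, was at 117, 9.22 and 64.0 in late S, 35.8, 0.788 and 0.0023 in CDT + DHT and 138, 0.587 and 1.29 in CDT. Its late S and CDT + DHT arrays overlapped (3.41 ± 1.54, limma adjusted p = 0.469). ABCC4, a related pump, differed from CDT + DHT by 2.42 ± 1.05 (limma adjusted p = 0.448). For the removal of superoxide and peroxide, 5 of 5 genes were measured, with medians of -0.07 and -0.20 and 0 at an unadjusted p of 0.05 in both. There catalase (CAT) differed from CDT + DHT by 0.84 ± 0.90 and CCS, the copper chaperone of superoxide dismutase, by 0.67 ± 0.92 (limma adjusted p = 0.774 and 0.830).

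Heme and iron genes stand nearest to the reaction of HMOX1, since heme is its substrate and iron its product. Of 26 listed, 23 were measured and 0 passed in limma in late S against CDT + DHT, CDT or early S. At an unadjusted p of 0.05, 10 of 23 passed against CDT + DHT, against 1 of 23 for CDT and 2 of 23 for early S, and 10.2% of all genes passed against CDT + DHT. The same count in G2/M against CDT + DHT was 7 of 23, beside 15.1% of all genes. It was 6 for early S (7.62%), 6 for late G1 (14%) and 5 for early G1 (8.07%). The excess over all genes was thus shared by all 5 arrests, each set against the same CDT + DHT arrays. The median of the 23 genes in late S was 0.07 against CDT + DHT and -0.15 against CDT. ALAS1, which starts heme synthesis, was at 6.23, 30.0 and 19.1 in late S, 83.9, 89.0 and 52.9 in CDT + DHT and 42.1, 56.3 and 8.62 in CDT. Its late S arrays were below those of CDT + DHT without overlap and overlapped those of CDT (-2.17 ± 0.75 against CDT + DHT, limma adjusted p = 0.357). TFRC, the transferrin receptor, was at 15.7, 132 and 65.6 in late S and 20.4, 13.7 and 2.53 in CDT + DHT, with late S 1 again inside the CDT + DHT range (2.35 ± 1.00, limma adjusted p = 0.438). The following genes were chosen after their values were seen. HMOX2, the constitutive heme oxygenase, was at 20.5, 64.3 and 71.8 in late S and 116, 109.9 and 107 in CDT + DHT, with no overlap (-1.26 ± 0.53, limma adjusted p = 0.436), as 8.81% of all genes were lower there. BLVRB, biliverdin reductase B, was at 272, 254 and 302 in late S and 156, 166 and 178 in CDT + DHT, again with no overlap and in the opposite direction, as 6.29% of all genes were higher there (0.72 ± 0.45, limma adjusted p = 0.593). FTL, the ferritin light chain, differed by 0.28 ± 0.56 (limma adjusted p = 0.886).

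For metallothioneins, 11 of 12 genes were measured, with 0 calls, medians of -0.09 against CDT + DHT and -0.30 against CDT, and 2 and 1 at an unadjusted p of 0.05. MT1X, a metal-binding metallothionein, was at 16.9, 25.2 and 21.4 in late S and 102, 96.5 and 65.5 in CDT + DHT (-2.00 ± 0.47, limma adjusted p = 0.126), and SLC30A1, a zinc exporter, differed by 1.69 ± 0.87 (limma adjusted p = 0.511). For heat shock genes, 15 of 17 were measured, with 0 calls, medians of 0.18 and 0.04, and 1 and 1 at an unadjusted p of 0.05. There HSPH1 differed from CDT + DHT by 1.81 ± 0.90 and HSPD1, a mitochondrial chaperonin, by 1.70 ± 0.69 (limma adjusted p = 0.498 and 0.426). For ATF4 targets, which share SLC7A11 with NRF2 but were listed without it, 16 of 16 were measured, with 0 calls, medians of 0.10 and 0.28, and 1 and 0 at an unadjusted p of 0.05. The 1 gene against CDT + DHT was SLC3A2, also in the glutathione list, which was lower in late S (-1.78 ± 0.69, limma adjusted p = 0.410). PSAT1, of serine synthesis, differed from CDT + DHT by 0.61 ± 0.58 (limma adjusted p = 0.740).

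Leaving aside the cell type markers, the targets of p53 were the only one of the 11 gene lists with calls in late S. Of 20 listed, 18 were measured. With limma, 1 rose in late S against CDT + DHT (GDF15), where 0.0706% of all genes passed. The count was 4 against CDT (CDKN1A, DDB2, GDF15 and TP53I3), where 0.0977% of all genes passed. It was 4 against early G1 (BBC3, CDKN1A, DDB2 and TP53I3), where 0.0489% passed, and 1 against late G1 (DDB2), where 0.195% passed. It was 0 against early S and G2/M, where 0.00543% and 0.0217% of all genes passed. At an unadjusted p of 0.05, 2 and 3 passed in these last 2 comparisons, beside 5.85% and 6.27% of all genes. No member fell in these comparisons. The median of the list was 1.14 against CDT + DHT and 0.91 against CDT, beside -0.01 and -0.10 for all genes. It was 0.98 in early S and 0.81 in G2/M against CDT + DHT, and 0.83 in early S and 0.89 in G2/M against CDT, with the CDT + DHT or CDT arrays shared. In G2/M, 1 member rose against CDT + DHT (MDM2, the ubiquitin ligase of p53), where 0.44% of all genes passed. In G2/M against CDT, 1 member rose (TP53I3), where 0.109% of all genes passed. Between late S and early S the median difference was 0.37, and between late S and G2/M it was 0.22. GDF15, a secreted stress cytokine, was at 1384, 1371 and 1492 in late S, 200.4, 239 and 202 in CDT + DHT and 445, 178 and 184 in CDT. It rose by 2.73 ± 0.44 against CDT + DHT (limma adjusted p = 0.0293) and by 2.53 against CDT (limma adjusted p = 0.0336). CDKN1A, which encodes the kinase inhibitor p21, was at 322, 491 and 619 in late S and 40.0, 61.7 and 11.1 in CDT, and rose by 3.88 against CDT (limma adjusted p = 0.0123). TP53I3, a quinone oxidoreductase homologue, rose by 3.76 against CDT (limma adjusted p = 0.0198), and DDB2, a DNA repair gene, rose by 2.53 (limma adjusted p = 0.0336). CDKN1A was also high in early S, at 345 and 373, where HMOX1 was at 33.0 and 33.8. Whether p53 has a part in the level of HMOX1 was not tested. Without the 4 arrays that stood apart, 0 genes of the list passed against CDT + DHT, 1 against CDT (TP53I3) and 0 against early G1. Over all genes, these calls numbered 0, 2 and 0. With a pseudocount of 16, 5 of the list passed against CDT + DHT, beside 62 calls over all genes.

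**Figure D5:**
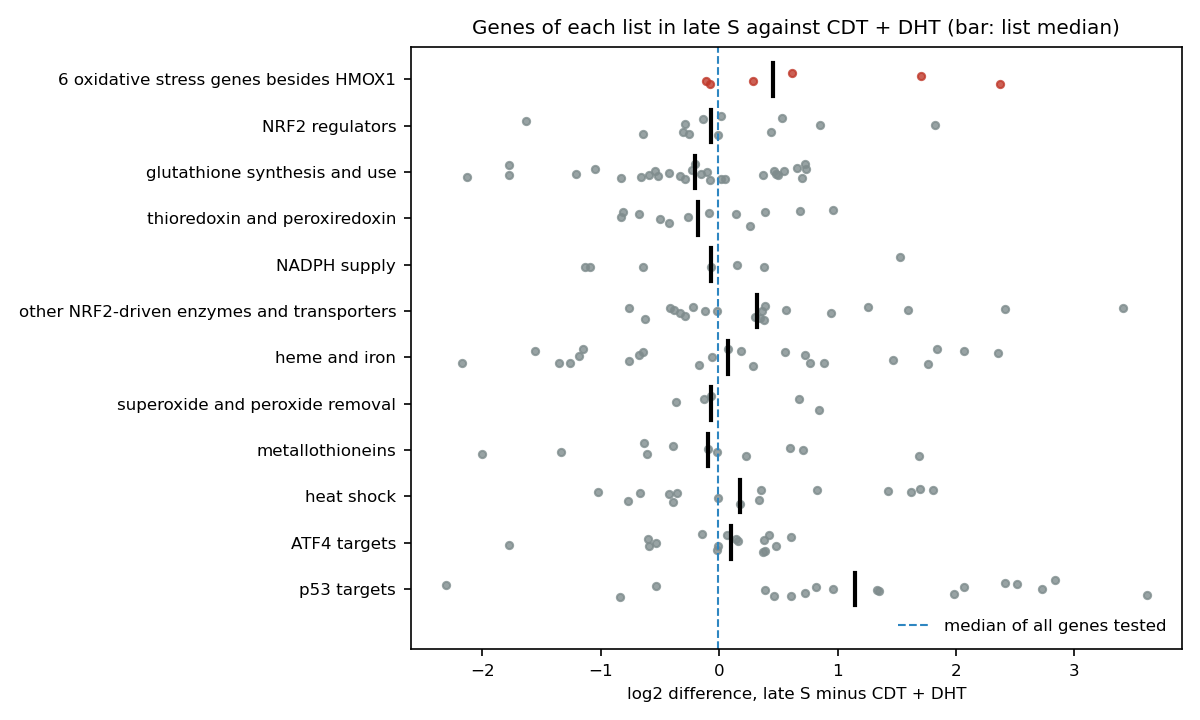
Differences of the single genes of each list in late S against CDT + DHT (log2 scale), with a bar at each list's median and a dashed line at the median of all genes (-0.01). The bar of the p53 targets lies at 1.14 and that of the 6 oxidative stress genes besides HMOX1 at 0.45. That of the other NRF2-driven enzymes and transporters lies at 0.32. The lists of NRF2 regulators, glutathione genes and thioredoxin genes lie at -0.07, -0.20 and -0.18.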

How the data were processed

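The authors deposited 1 table of 20 arrays, whose values are linear probe set intensities. The submitters' processing notes name Affymetrix Expression Console 1.1, while how probes were summarised or arrays normalized is not given in the sources used here. Array medians ran from 5.44 to 9.08, with 0 values at or below 0, so the scale was taken as linear. RNA was extracted with Trizol and amplified with a NuGEN Ovation Pico kit, per the labels' protocols. Of 33297 features, 19460 had 1 gene symbol in the platform's annotation, 1754 had several and 12083 were not listed. The brightest cluster per gene gave 18417 genes, and 19429 features matched RefSeq (GRCh38.p14) for current names and coordinates.

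Values were tested as log2(value + 1) with limma 3.58.1 (R 4.3.3), using lmFit and default eBayes with 1 coefficient per group on all 20 arrays. Tests were two-sided, and p-values were adjusted by the Benjamini-Hochberg method over all genes, at a threshold of 0.05. The fit was tested on simulated data. Fold changes are on that scale and understate those of dim genes. Comparisons were the 21 pairs of groups, and limma's moderated F test was run on the 5 arrests. The members and lists were chosen with earlier results of these data known. Named genes were the 7 members, list genes that passed in a late S comparison (otherwise up to 2 per list by the size of the late S minus CDT + DHT difference) and the 6 genes most like HMOX1 and most like the mean of the other 6. The other alternatives tried are in the closing section. No 2 arrays were identical, and 0 columns were left out.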

Additional observations from a re-analysis of the deposited data

How the results depend on the processing

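The 0 calls of the 7 genes held under every alternative run for CDT + DHT against CDT, late S against the other arrests, the other arrests against each other, and the F test. For arrests against CDT, arrayWeights gave 1 call (SLC7A11 in late S). For arrests against CDT + DHT, a pseudocount of 16, quantile normalization, arrays centred on their median and dim genes left out gave 1 call each (SLC7A11 in late G1), and only the compared groups in the fit gave 1 (TXNRD1 in G2/M). There eBayes with trend and robust gave 2, arrayWeights gave 5 (SLC7A11 and TXNRD1 in late S and in late G1, and TXNRD1 in G2/M), and leaving out 1 array gave 0 to 1, with SLC7A11 in late G1 passing without late S 1 and TXNRD1 in G2/M without CDT 1. HMOX1 in late S stayed above its comparison group in every alternative, by 1.46 to 2.29 against CDT, 2.07 to 2.61 against CDT + DHT and 2.24 to 2.83 against early S. Small differences of the other genes, none of them called, changed sign. With arrayWeights, late S against CDT was -0.69 for GCLC, and against early S it was 0.27 for GCLM and -0.71 for GCLC. Without the 4 arrays that stood apart, GCLC was at -0.62 against CDT and -0.73 against early S, GCLM at 0.58 and TXNRD1 at 0.053 against early S, and NQO1 at 0.0085 against CDT + DHT. With a pseudocount of 16, GCLC was at 0.079 against CDT + DHT. When 1 array was left out, late S against CDT ran from -0.26 to 1.08 for GCLM, -0.85 to 0.61 for GCLC, -0.70 to 0.99 for TXNRD1 and -0.040 to 0.095 for SRXN1. Against CDT + DHT it ran from -0.26 to 0.059 for NQO1 and -0.99 to 0.48 for GCLC, and against early S from -1.15 to 0.67 for GCLM, -0.73 to 0.73 for GCLC and -1.48 to 0.16 for TXNRD1. The causes were not tested. Replicate numbers did not pair the arrays throughout (57 pairs of the same number, r of deviations from -0.72 to 0.71, median -0.03, 22 over 0.1). For replicates 1 and 2, r was 0.40 and 0.59 for late S with early S, and 0.49 and 0.71 for late S with CDT. It was 0.68 and 0.47 for early S with CDT, and -0.38 and -0.72 for late S with early G1. For replicate 3 of late S with CDT it was -0.28. With the replicate number as a block, HMOX1 in late S differed from early S by 2.70, the members had 0 calls, and the calls over all genes in late S against CDT + DHT numbered 0, beside 13 without the block. Over all genes those calls numbered 1776 with arrayWeights and 62 with a pseudocount of 16. Early S had 2 arrays, and a comparison without 1 of them takes the spread of the lone array from the other groups.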
